A study of Mus musculus with 6 samples.

Results

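Described here are 10 genes of the ATF4 pathway in mouse natural killer (NK) cells, among the 19943 genes that could be read from the arrays. They are Atf4, Atf5, Atf3, Ddit3 and Cebpb, which encode transcription factors, and Trib3, Chac1, Sesn2, Ddit4 and Asns, which encode products downstream of them. The genes were chosen by name with their difference between the study's groups on these arrays already known, so the measured values that chose them are those of that contrast. All 10 were measured, each by 1 probe set that the platform's annotation ties to that gene alone. That difference is therefore given for these genes as a description, without a test, and supports nothing beyond itself.

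RNA came from 6 cell preparations, 3 of IL-18 generated NK cells and 3 of unstimulated NK cells, each on its own Affymetrix array. Per the labels, NK cells isolated by NK1.1 spent a night in RPMI medium with serum, pyruvate, non-essential amino acids, 300 IU of IL-2 and 25 ng/ml of IL-18. The IL-18 gate then took cells bearing c-kit without CD11b, and the unstimulated gate took cells bearing CD11b without c-kit, with NK1.1 required and CD3 and dead cells excluded in both. The labels used here do not say whether unstimulated cells were also cultured, and give no strain or age of the mice. The effects of IL-18, IL-2, culture and gate cannot be told apart in the differences below. The design text calls the preparations independent, and every p-value reflects the spread among 6 arrays, a number that limits the precision.

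ATF4 is the main transcription factor of the integrated stress response. Kinases that sense amino acid shortage, misfolded protein in the endoplasmic reticulum, viral RNA or lack of heme phosphorylate the alpha subunit of initiation factor eIF2, which slows most translation while translation of ATF4 mRNA increases. ATF4 pairs with C/EBP family proteins on composite elements in promoters and switches on genes for amino acid synthesis, amino acid uptake and tRNA charging, among them Asns. The same factor also serves growing lymphocytes, where mTORC1 raises ATF4 activity. The arrays measured RNA, so neither ATF4 protein nor eIF2 phosphorylation was read.

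The composite element is shown first because it is the sequence through which ATF4 is known to act on several of these genes. Its core, TGATGNAA, where N is any base, was searched on both strands of RefSeq promoters (GRCm38.p6) that reach from 250 bases before to 50 bases after a gene's annotated start. The table held promoters for all 10 genes, and 4 of the genes had a match, against 4.51% of all 27025 genes in it (3.97% of 32851 promoters). Capitals mark the match, and each stretch is written 5′ to 3′ on the strand of its gene. Asns lies on the minus strand at chr6:7693210-7693269 with the first matching base 23 bases before the start. Chac1 lies on the plus strand at chr2:119351023-119351082 with the match 193 bases before the start, and Atf3 on the minus strand at chr1:191183410-191183469 with the match 110 bases before it. In Trib3, on the minus strand at chr2:152344028-152344057, the match begins at base 15 of the transcribed sequence, in the first exon.
Asns: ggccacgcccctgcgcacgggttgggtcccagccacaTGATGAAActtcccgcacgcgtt
Chac1: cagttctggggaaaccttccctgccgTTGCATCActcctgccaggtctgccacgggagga
Atf3: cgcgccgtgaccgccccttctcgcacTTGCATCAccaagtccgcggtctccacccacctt
Trib3: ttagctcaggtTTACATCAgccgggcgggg

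Asns carried the core in forward orientation, and Chac1, Atf3 and Trib3 carried it on the opposite strand, so that it reads reversed in these lines. With the free position fixed as C (TGATGCAA), the core was found in 2 of the 10 genes, Chac1 and Atf3, against 1.03% of all genes in the table. The cyclic AMP response element TGACGTCA, a site of the wider ATF family that shares no full match with the core, was found in 0 of the 10, against 2.03% of all genes. A match describes letters in this window and is no evidence of binding.

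Of the 10 genes, 9 were higher in the IL-18 generated cells and Cebpb was lower. The downstream genes Asns, Chac1, Trib3 and Sesn2 differed by 5.86-fold to 29.7-fold, whereas the transcription factor genes Atf4, Atf5 and Atf3 differed by 2.20-fold to 2.68-fold, and Ddit3 and Ddit4 by less. The median difference over the 10 was 1.38 on the log2 scale, beside -0.06 over all genes tested. Each value is a log2 difference from the median that the probe set has over the 6 arrays. Such values show differences between arrays but no expression level, and no gene's level can be set against another's. Where the groups do not overlap, this centring places 0 midway between the lowest array of the higher group and the highest array of the lower group, so those 2 values mirror each other by construction.

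**Figure D1:**
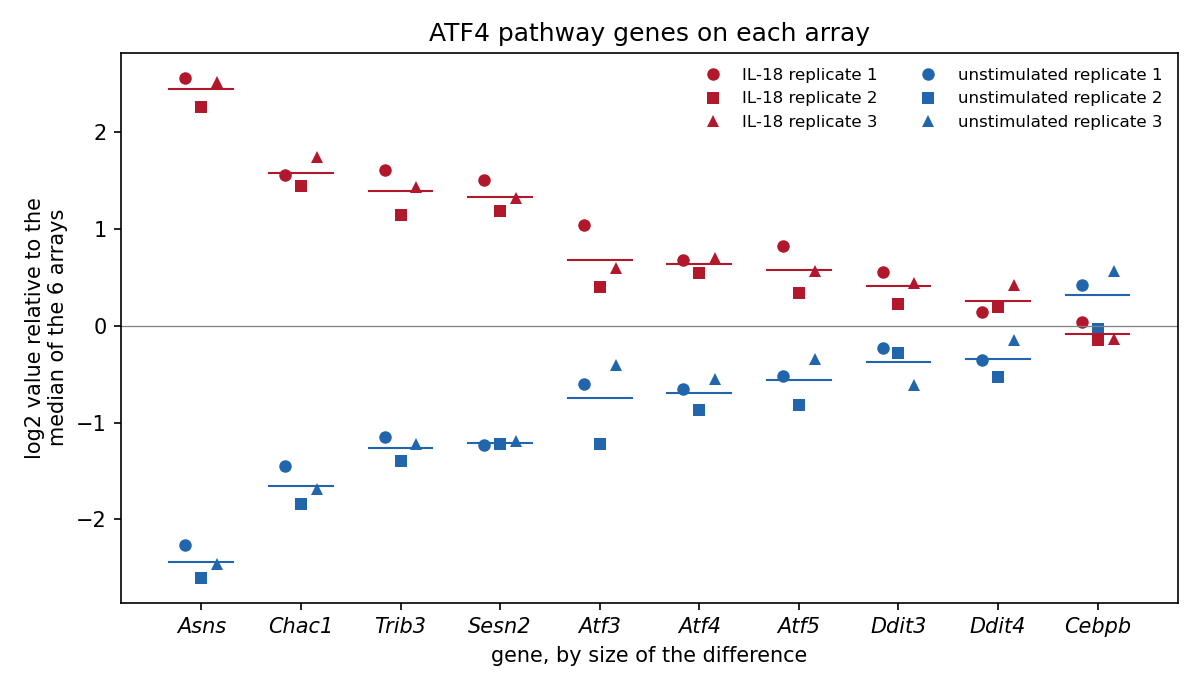
Log2 value of each of the 10 genes on each array, relative to the median of its 6 arrays, with IL-18 arrays in red, unstimulated arrays in blue, marker shape for the replicate and a line at each group mean. The groups are apart for 9 genes, most widely for Asns with a difference of 4.89, and overlap for Cebpb.

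Atf4 had log2 values of 0.68, 0.55 and 0.70 on IL-18 replicates 1, 2 and 3, and of -0.65, -0.87 and -0.55 on the unstimulated replicates. The IL-18 arrays spanned 0.15, all above the highest unstimulated array, and the unstimulated arrays spanned 0.32. The difference was 1.34 ± 0.10 (log2 difference ± SE from limma, n = 3 arrays per group, as for all differences below), or 2.53-fold. Of all genes tested, 1.76% had a larger increase.

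Atf5, a close relative of ATF4 whose translation is governed in a similar way, had values of 0.83, 0.34 and 0.57 on the IL-18 arrays and of -0.52, -0.82 and -0.34 on the unstimulated arrays. Its groups did not overlap, although each spread more widely than for Atf4, and the difference was 1.14 ± 0.14. Atf3, a stress-induced repressor and also an immediate early gene, had values of 1.04, 0.40 and 0.60 with IL-18 and of -0.60, -1.22 and -0.40 without. Atf3 was the most variable of the 10, with SDs of 0.33 and 0.43 within the groups, and its difference was 1.42 ± 0.21. Among the unstimulated arrays its lowest value was on replicate 2. The immediate early gene Fos was also lowest there, at 0.24 against 2.74 and 2.44 on replicates 1 and 3, and its part in the values of Atf3 was not tested.

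Ddit3 encodes CHOP, a C/EBP family protein that promotes cell death when stress persists. It had values of 0.56, 0.23 and 0.44 on the IL-18 arrays and of -0.23, -0.28 and -0.61 on the unstimulated arrays. The groups did not overlap, but their nearest arrays lay only 0.46 apart, and the difference was 0.78 ± 0.12, or 1.72-fold.

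Cebpb encodes C/EBPβ, a partner with which ATF4 can pair and a factor used widely by myeloid cells. Its values were 0.04, -0.14 and -0.14 with IL-18 and 0.42, -0.04 and 0.57 without. Unstimulated replicate 2 fell between the IL-18 arrays, so the groups overlapped, and the difference was -0.40 ± 0.14. Without unstimulated replicate 2 the difference was -0.58, and over the 6 fits that each left out an array it ran from -0.58 to -0.27. Markers of myeloid cells were lower in the same arrays. All 11 measured markers of monocytes and macrophages passed limma's test as lower (median -3.14, Lyz2 and Cybb most). So did all 12 of neutrophils (median -2.63, Ngp and Cxcr2 most), beside 16.7% of all genes tested. The mean of the monocyte markers lay between -1.54 and -1.46 on the IL-18 arrays and between 1.40 and 1.91 on the unstimulated arrays, and that of the neutrophil markers between -1.16 and -0.96 and between 1.09 and 2.19. Fewer cells of a type and less RNA per cell cannot be told apart in such bulk samples, and the part of these cells in the value of Cebpb was not tested.

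The 4 downstream genes with the widest separation act in amino acid supply, redox balance and feedback. Asns encodes asparagine synthetase, which makes asparagine from aspartate and glutamine. Its values were 2.56, 2.27 and 2.52 on the IL-18 arrays and -2.27, -2.60 and -2.46 on the unstimulated arrays. The lowest IL-18 array lay 4.53 above the highest unstimulated array. The difference of 4.89 ± 0.11, or 29.7-fold, was the second largest increase of all genes tested.

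Chac1, whose product breaks down glutathione, had values of 1.56, 1.44 and 1.74 with IL-18 and of -1.44, -1.84 and -1.68 without, a difference of 3.24 ± 0.11 or 9.45-fold. Trib3 encodes a pseudokinase that binds ATF4 and damps its activity. It had values of 1.61, 1.15 and 1.44 with IL-18 and of -1.15, -1.40 and -1.22 without, a difference of 2.66 ± 0.12 or 6.30-fold. In both genes IL-18 replicate 2 was the lowest array of its group and still lay above the highest unstimulated array, by 2.89 for Chac1 and by 2.30 for Trib3.

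Sesn2 and Ddit4 restrain mTORC1, the kinase complex that drives growth. SESN2 is a leucine sensor that acts through the GATOR complexes, and DDIT4 (REDD1) acts through the TSC complex. Sesn2 had values of 1.50, 1.19 and 1.32 with IL-18 and of -1.23, -1.22 and -1.19 without, so the unstimulated arrays nearly coincided, with an SD of 0.025. Its difference was 2.55 ± 0.09, or 5.86-fold. Ddit4 had values of 0.15, 0.20 and 0.42 with IL-18 and of -0.35, -0.53 and -0.15 without. Its groups did not overlap, but the difference, 0.60 ± 0.11 or 1.51-fold, was the smallest of the 9 increases.

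Groups did not overlap, with IL-18 higher, for 9 of the 10 genes, beside 22.9% of all genes tested (48.6% in either direction). Because the genes were listed with this contrast known, nothing is read from that count. In the order of the differences, the gap from Asns to Chac1 was 1.65 ± 0.07 and that from Chac1 to Trib3 was 0.58 ± 0.13, each gap being read within the same arrays, with its SE from the spread of those readings. Trib3 and Sesn2 lay 0.10 ± 0.09 apart, and Sesn2 and Atf3 1.13 ± 0.26. The order of Trib3 and Sesn2, and that from Atf3 down to Ddit4, is less settled by the spread. From Atf3 the gaps were 0.08 ± 0.22 to Atf4, 0.20 ± 0.12 from there to Atf5, 0.36 ± 0.24 to Ddit3 and 0.19 ± 0.26 to Ddit4. The gap from Ddit4 to Cebpb was 0.99 ± 0.16. These gaps are a description of the same contrast and were not tested.

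**Figure D2:**
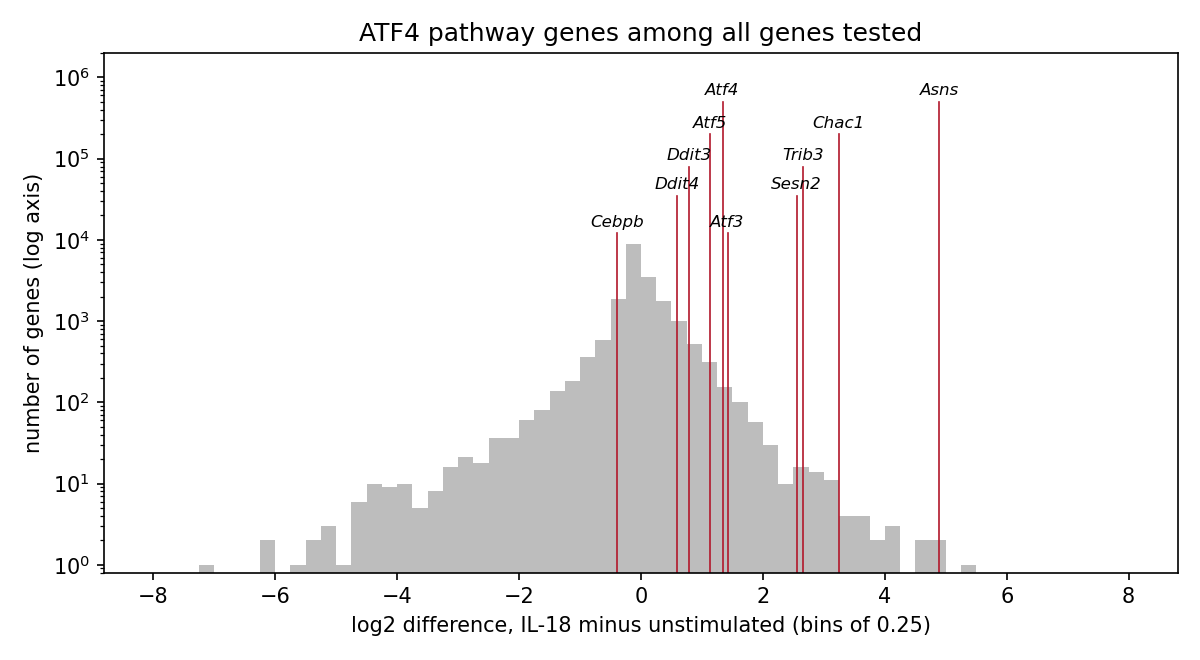
Number of genes (log axis) by log2 difference, IL-18 minus unstimulated, for all 19943 genes tested in bins of 0.25, with red lines at the 10 ATF4 pathway genes. Asns lies near the upper end at 4.89, Atf4 at 1.34, and Cebpb below 0 at -0.40.

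The arrays within a group also differed in a shared way, which the choice of genes did not use. IL-18 replicate 2 had the lowest value of its group for 9 of the 10 genes, all but Ddit4, and the highest for 0. Over all genes tested it was lowest for 34.9%, and over the 3935 genes higher with IL-18 (limma, adjusted p below 0.05) for 43.4%. Among 44 other measured targets of ATF4, listed below, it was lowest for 42. No share was computed for genes of similar increase. The low position was not particular to ATF4 targets. For genes of the ATF6 and XBP1 arms, described below, the list mean was 0.24 on IL-18 replicate 2 against 0.31 and 0.43 on replicates 1 and 3. Replicate 2 also had the lowest mean for the bZIP list and for the TSC, Rheb and GATOR list. The lowest was replicate 1 for the eIF2 genes and replicate 3 for the paralogs. Unstimulated replicate 2 was lowest for 8 of the 10 genes, beside 42.5% of all genes and 16.7% of those higher with IL-18. Among the other targets it was lowest for 17 of 44, so there the unstimulated arrays had no common order.

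On average over the 10 genes, IL-18 replicate 2 lay 0.164 below its group mean and unstimulated replicate 2 lay 0.186 below its own (deviations of -0.164 and -0.186), on the log2 scale. These shifts are small beside the differences between groups of Asns, Chac1, Trib3 and Sesn2. They are larger in proportion to those of Ddit3 (0.78), Ddit4 (0.60) and Cebpb (-0.40), but these genes did not all carry the mean shift. On unstimulated replicate 2, Ddit3 had -0.28, above its group mean of -0.37, and Cebpb had -0.04, below its group mean of 0.32. On IL-18 replicate 2, Ddit4 had 0.20 against a group mean of 0.26. IL-18 replicate 2 also stood apart in the mean of markers of basophils and mast cells. This mean was -0.61 there against -2.31 and -2.33 on IL-18 replicates 1 and 3, and from 0.61 to 2.13 on the unstimulated arrays. Not every marker shared this gap. Cma1 had -1.71, -1.53 and -1.50 on IL-18 replicates 1, 2 and 3, and Hdc had -0.81, -0.72 and -1.08. All 8 of the basophil and mast cell markers, beside 16.7% of all genes tested, passed limma's test as lower with IL-18 (median -3.05, Cpa3 and Prss34 most). Their part in the order of the arrays was not tested. Without IL-18 replicate 2 the median difference over the 10 genes was 1.47, with Atf4 at 1.38 and Asns at 4.98.

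**Figure D3:**
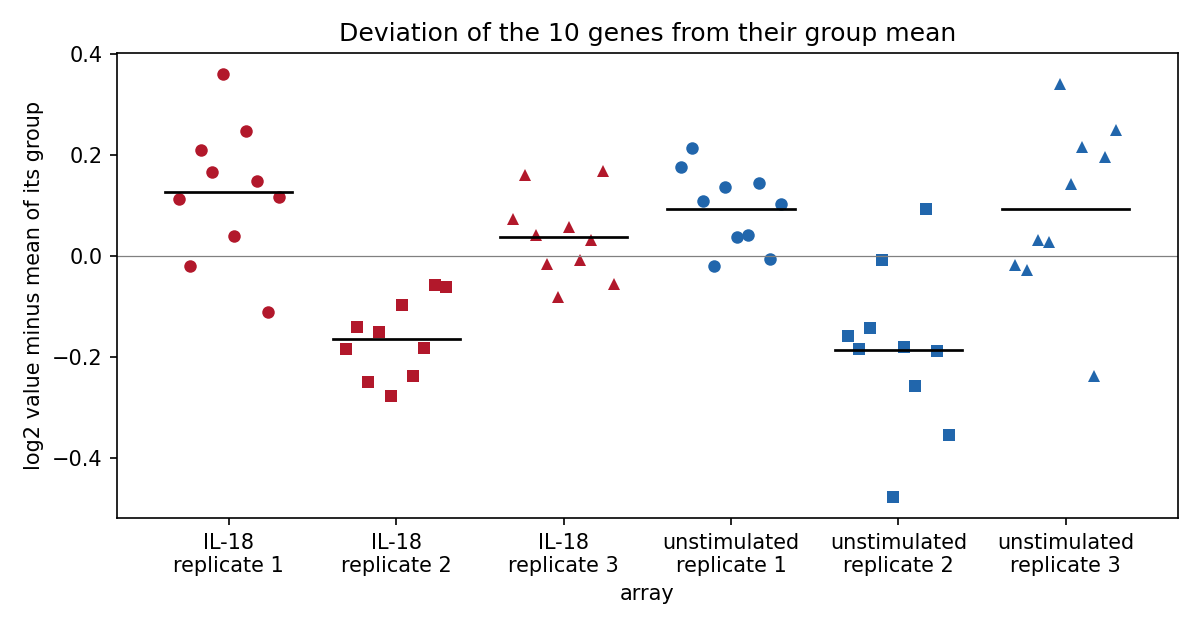
Deviation of each of the 10 genes from the mean of its own group, on the log2 scale, for each array, with genes from left to right by falling difference and a black line at their mean. Points of replicate 2 lie mostly below 0 in both groups, with means of -0.164 and -0.186.

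The 44 other targets of ATF4 were taken from 4 lists by role and, unlike the 10 genes, were tested with limma in the fit over all genes, where 19.7% of genes passed as higher and 16.7% as lower at an adjusted p below 0.05. These lists too were written with earlier results of these data known. Every measured gene of the 3 lists of amino acid supply and tRNA charging rose, and the list medians lay above that of the 10 genes. All 11 measured enzymes of amino acid synthesis and folate metabolism rose (median 1.98), with Mthfd2, a mitochondrial folate enzyme, at 3.51 ± 0.10, Cth, which makes cysteine, at 2.90 ± 0.22, and Gpt2, an alanine transaminase, at 2.84 ± 0.12. All 9 amino acid transporters rose (median 2.33), with Slc7a3 for arginine and lysine at 3.89 ± 0.15, Slc7a5 for leucine at 3.71 ± 0.13 and Slc6a9 for glycine at 3.19 ± 0.15. All 11 measured genes of tRNA charging and export rose (median 1.65) within a narrower range, 1.03 to 2.13, led by the tRNA exporter Xpot at 2.13 ± 0.12, the glycyl-tRNA synthetase gene Gars at 2.03 ± 0.09 and the isoleucyl-tRNA synthetase gene Iars at 1.99 ± 0.07. The highest limma adjusted p among these 9 named genes was 3.54e-06, for Cth.

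The list of stress signals and other targets was mixed. Of 13 measured, 7 rose, 1 fell and 5 did not pass (median 0.74). Tnfrsf10b, a TRAIL receptor gene, rose by 2.41 ± 0.11, Ero1a, an oxidase of the endoplasmic reticulum, by 2.08 ± 0.11 and Eif4ebp1, which encodes the translation repressor 4E-BP1, by 1.81 ± 0.09 (limma adjusted p at most 3.86e-07). Map1lc3b, an autophagy gene, fell with -0.60 ± 0.08 (limma adjusted p 0.000131), alike on both of its probe sets at -0.59 and -0.60. The 5 that did not pass were Nupr1, Fgf21, Vldlr, Stc2 and Jdp2, with differences from -0.19 to 0.26. Relative values do not show whether these are expressed at all.

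Of 35 genes in the 4 lists with a promoter in the RefSeq table, 14 held the core TGATGNAA, beside 4.51% of all genes there. Got1, Pck2, Slc1a4, Slc7a11, Gars, Iars, Tars and Yars were among them and rose. Nupr1, Fgf21, Vldlr and Jdp2 did not pass limma's test, and Pycr1 and Aars were not measured. The core was thus found on both sides of the threshold. Promoters were counted for the genes of the lists under their listed symbols, whether measured or not.

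**Figure D4:**
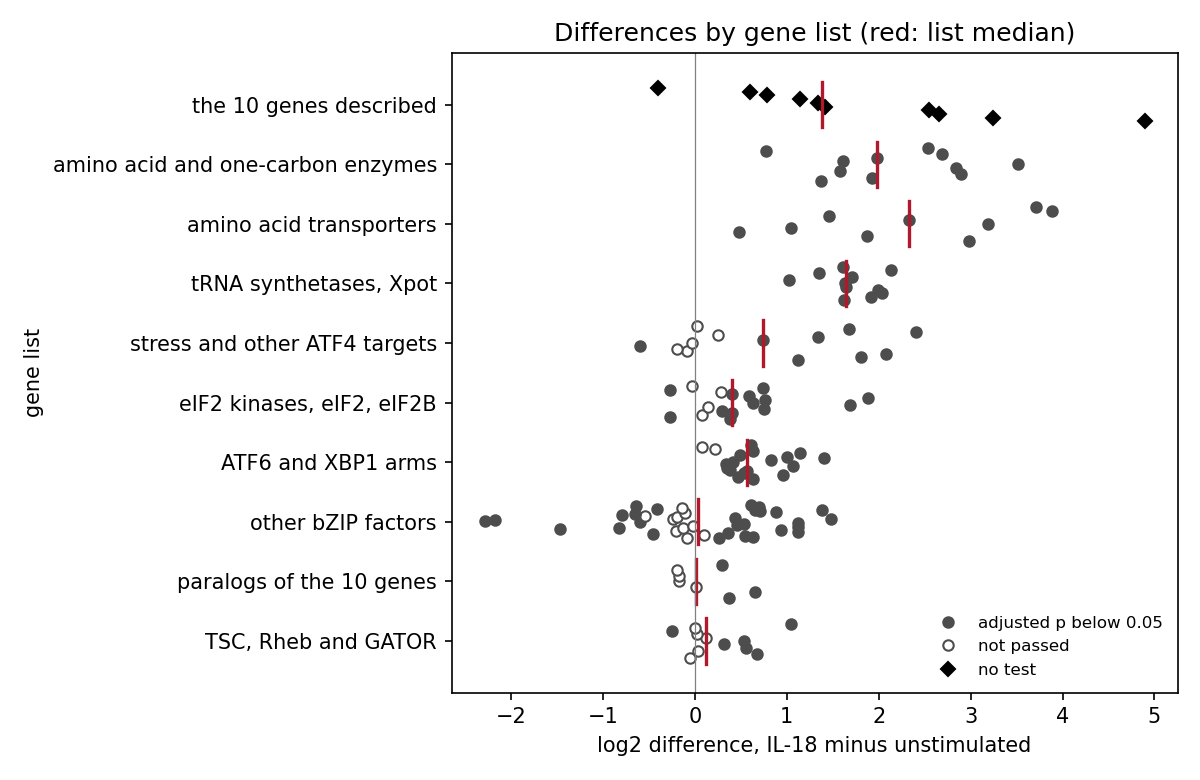
Log2 difference, IL-18 minus unstimulated, of each measured gene by list, with filled circles for genes at a limma adjusted p below 0.05, open circles for the rest, diamonds for the 10 genes that were not tested, and a red line at each median. The amino acid lists lie wholly above 0, with medians from 1.65 to 2.33, while paralogs of the 10 genes centre on 0.01.

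Upstream of ATF4, the genes of eIF2, its exchange factor, its kinases and its phosphatase differed less. Gcn1, Impact, Dnajc3 and Nck1 were listed with them, and the whole list is called eIF2 genes below. Eif2s1, the gene of the alpha subunit, was not measured. Ppp1r15a is also counted among the stress targets, and Dnajc3 among the genes of the ATF6 and XBP1 arms. Of 17 measured, 11 rose, 2 fell and 4 did not pass (median 0.40), beside 19.7% higher and 16.7% lower over all genes tested. Eif2s2, the beta subunit of eIF2, rose by 1.89 ± 0.09, and the exchange factor subunits Eif2b3 and Eif2b5 rose by 1.69 ± 0.07 and 0.76 ± 0.11 (limma adjusted p at most 0.000234). Eif2s2 rose on both of its probe sets, by 1.75 and 2.03. Among the 4 kinases, Eif2ak3 (PERK, which responds to misfolded protein) rose by 0.40 ± 0.10, with a limma adjusted p of 0.00986 and a range of 0.00358 to 0.042 over 14 alternatives. Eif2ak4 (GCN2, which responds to uncharged tRNA) had a difference of 0.30 ± 0.11 at an adjusted p of 0.0499, a call that was lost in 6 of 14 alternatives, up to 0.187. Eif2ak2 (PKR) had 0.08 ± 0.15 and did not pass. Eif2ak1 (HRI) was called lower with -0.27 ± 0.09, as was the adaptor Nck1 with -0.27 ± 0.09, but these calls were lost in 7 and 8 of 14 alternatives, centring of the arrays among them, with limma adjusted p up to 0.117 and 0.127. Ppp1r15a (GADD34), the stress-induced subunit of the phosphatase that reverses eIF2 phosphorylation and itself an ATF4 target, rose by 0.74 ± 0.18 (limma adjusted p 0.00743).

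Genes of the other arms of the unfolded protein response rose too, with a lower median than the amino acid lists. Of 19 genes of the ATF6 and XBP1 arms, 17 rose, 0 fell and 2 did not pass (median 0.57), beside 19.7% higher over all genes. The chaperone gene Hyou1 rose by 1.40 ± 0.09, the disulfide isomerase gene Pdia6 by 1.15 ± 0.09 and Ern1, which encodes the stress sensor IRE1, by 1.07 ± 0.10 (limma adjusted p at most 1.14e-05).

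The bZIP family, from which ATF4 and C/EBP proteins draw their partners, moved in both directions. Of 38 measured members other than the 5 described above, 18 rose, 10 fell and 10 did not pass (median 0.04). Over all genes tested, 19.7% passed as higher and 16.7% as lower. Fosl1, an AP-1 subunit, rose by 1.48 ± 0.16, Nfe2l1, a factor that controls proteasome genes, by 1.38 ± 0.09, and Batf, an AP-1 factor of lymphocytes, by 1.13 ± 0.08 (limma adjusted p at most 3.17e-05). Cebpg, a C/EBP protein that pairs with ATF4, had the same difference as Batf to 2 decimals, 1.13 ± 0.09, with values of 0.73, 0.45 and 0.64 with IL-18 and of -0.58, -0.52 and -0.45 without. Its groups did not overlap, the nearest arrays being IL-18 replicate 2 and unstimulated replicate 3. Of the C/EBP genes outside the 10, Cebpg alone rose: Cebpa fell with -1.47 ± 0.13 and Cebpe with -0.83 ± 0.09, while Cebpd had -0.13 ± 0.09. Cebpa and Cebpe are genes of myeloid cells, whose markers were lower in the same arrays, as given beside Cebpb. Fos and Fosb fell with -2.29 ± 0.51 and -2.17 ± 0.53 (limma adjusted p 0.00467 and 0.00804), carried by high values on unstimulated replicates 1 and 3. Both calls were lost with limma's trend and robust variance options, with adjusted p up to 0.169 for Fos and 0.30 for Fosb. Junb, another AP-1 gene counted as lower, had -0.79 ± 0.27 with overlapping groups and a limma adjusted p of 0.0427, a call lost in 9 of 14 alternatives (up to 0.174). Over these alternatives the number of bZIP genes called lower ran from 7, with robust variances, to 13, with array weights.

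Close relatives of the downstream genes were mixed. Of 7 paralogs, 3 rose, 0 fell and 4 did not pass (median 0.01), beside 19.7% higher and 16.7% lower over all genes tested. Chac2 rose by 0.66 ± 0.14, Asnsd1 by 0.37 ± 0.09 and Trib2 by 0.30 ± 0.08, with limma adjusted p of 0.00308, 0.00787 and 0.0115. The call of Trib2 was lost without IL-18 replicate 1, at 0.0555. Trib1, Sesn1, Sesn3 and Ddit4l had differences of -0.19, -0.18, -0.18 and 0.01 and did not pass. The difference of each paralog lay below that of its relative among the 10 genes. Those relatives had 3.24 for Chac1, 4.89 for Asns, 2.66 for Trib3, 2.55 for Sesn2 and 0.60 for Ddit4. Because the 10 genes were listed with this contrast known, nothing is read from these gaps, which were not tested.

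Of 11 genes of the TSC, Rheb and GATOR proteins through which DDIT4 and SESN2 act on mTORC1, 5 rose, 1 fell and 5 did not pass (median 0.12). The shares over all genes tested were 19.7% higher and 16.7% lower. The GATOR subunit genes Wdr59 and Mios rose by 1.04 ± 0.11 and 0.68 ± 0.12, and Nprl3 by 0.56 ± 0.07 (limma adjusted p at most 0.00141). Rheb, which encodes the GTPase that activates mTORC1, was called higher with 0.31 ± 0.10 (limma adjusted p 0.0302), a call lost in 5 of 14 alternatives, each of them a fit without 1 array, with adjusted p up to 0.115. Tsc2 was called lower with -0.24 ± 0.08 (limma adjusted p 0.0306), a call lost in 8 of 14 alternatives, with adjusted p up to 0.127.

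Genes with provisional names (Gm with a number, or Rik) were left out of the search for profiles like that of Atf4. Among the rest, the 5 genes most like Atf4 over the 6 arrays were Slc19a1, Rpusd2, Cct3, Emb and Spire1. Likeness was the root mean square gap to Atf4 after centring each gene on its mean over the arrays, and it ran from 0.066 to 0.079 for these genes on the log2 scale. Among the 10 genes themselves, Atf5 was nearest to Atf4 at 0.15, followed by Atf3 at 0.23, and Trib3 and Sesn2 were nearest to each other at 0.10. Since size of the difference dominates this measure, it chiefly groups genes that differ by similar amounts.

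NK cell markers could not serve to check presence, since the values hold no level. All 10 passed limma's test as lower in the IL-18 generated cells, beside 16.7% of all genes tested. The granule genes Gzma at -4.10 ± 0.20 and Prf1 at -2.17 ± 0.13 were lowest. Of T cell markers 0 of 8 passed limma's test, and 1 of 8 had an unadjusted p below 0.05. All 7 measured B cell markers passed as lower (median -0.42, Cd22 and Cd79b most).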

How the data were processed

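Total RNA of 6 NK cell preparations was labelled with biotin and hybridised to 1-colour Affymetrix arrays, per the labels. The deposited table holds the authors' processed values of 28815 probe sets on a log2 scale, each centred on its median over the 6 arrays (largest departure from 0, 5e-07). How the authors summarised and normalised them is unknown, as no label or header used here records it. The log base is not stated and was read from the values: the widest range in a probe set, 7.77, exceeds the log10 of a 16-bit maximum, 4.82. Of 239 probe sets too wide for natural logarithms above 8 (range over 3.09), 44 lay, within 0.15 of a step, on the rounding grid of single-precision numbers between 8 and 16, where 31.8% of all probe sets lay and chance gives 0.24%.

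Of the probe sets, 21788 had 1 gene symbol in the platform annotation, 1597 had several and 5430 were not listed. Probe sets with 1 symbol were averaged per gene, which gave 19943 genes, 998 of them with more than 1 probe set. Array medians lay between -0.025 and 0.039, and no further normalization was applied. The comparison of the groups used lmFit and eBayes of limma 3.58.1 (R 4.3.3) without covariates, with Benjamini-Hochberg adjustment over all genes and calls at an adjusted p below 0.05. On simulated data for this contrast, with 200 of 19943 genes changed, calls recovered 53.7% of changes of 0.5, 89.6% of 1 and 98.5% of 2, and 8 of 169 calls were false. The simulated noise was independent between genes, and far fewer genes changed than the 3935 called higher and 3332 called lower in the data. These rates therefore check the code and need not hold for the real contrast. Python 3.11.15 served for tables (pandas 2.3.3, numpy 2.4.6), promoters and plots (matplotlib 3.10.9).

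The 10 genes and all lists were chosen with earlier results of these data known. Named from the other lists were up to 3 genes of largest rise and 3 of largest fall among those that passed, all paralogs and 2 genes per marker list. Also named were the 5 genes most like Atf4 among those without provisional names. The kinases of eIF2, Ppp1r15a, Cebpg, Cebpe, Cebpd, Junb, Rheb, stress targets that did not pass, genes named for the motif and the order of arrays were picked out after their values were seen. A planned comparison of leucine zippers needed protein sequences and was not run. Promoter sequences are RefSeq's (GRCm38.p6). Over all genes tested, same-numbered arrays of the groups did not consistently deviate together (correlations of 0.24, 0.01 and -0.02), so the numbers were not taken as pairs. Over the 10 genes alone, replicate 2 lay below its group mean in both groups (mean deviations of -0.164 with IL-18 and -0.186 unstimulated).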

Additional observations from a re-analysis of the deposited data

How the results depend on the processing

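For the 10 genes and their median, the difference between groups kept its sign under every alternative run, namely trend and robust variances in limma, array weights, quantile normalization, array centring, other gene values, a replicate block, and fits without single arrays. Most of these could not have changed the sign. Trend and robust variances and a balanced replicate block leave the differences as they are. Other gene values do the same for genes with 1 probe set. For the 9 genes whose groups do not overlap, array weights and fits without single arrays cannot reverse the sign either. The median difference over the 10 genes ran from 1.21 to 1.50 when single arrays were left out, and 9 or 10 of them did not overlap. Leaving out an array cannot make groups overlap, so this count could not fall below 9 and nothing is read from it. The share over all genes in these fits was not computed. Quantile normalization gave larger differences for Asns (6.01), Chac1 (3.86), Trib3 (3.13) and Sesn2 (3.01), and the cause was not tested. With the replicate block, 3949 genes were higher and 3330 lower, and 0 of the TSC, Rheb and GATOR genes were called lower in place of 1. Not every IL-18 array correlated best with the unstimulated array of its number. With quantile normalization or centring of the arrays, 0 eIF2 genes and 0 TSC, Rheb and GATOR genes were called lower, and with limma's trend option 1 eIF2 gene was. When single arrays were left out, these counts ran from 0 to 2 and from 0 to 1. Restricting the fit to genes with 1 probe set left 0 stress targets lower, because Map1lc3b has 2. A further demand of a log2 difference of at least 1 left 721 genes higher and 647 lower. Under it, 2 eIF2 genes, 5 bZIP genes, 4 genes of the ATF6 and XBP1 arms, 1 TSC, Rheb and GATOR gene and 0 paralogs were called higher, and 3 bZIP genes, 0 eIF2 genes, 0 stress targets and 0 TSC, Rheb and GATOR genes lower. Fixing the free position of the promoter core reduced the genes with a match among the 10 from 4 to 2. A filter on dim genes was not run, since centred values hold no level, and small differences of genes near background cannot be judged for the same reason.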
